A study of Mus musculus with 4 samples.

Results

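The regions described here are stretches of open chromatin that were called in every library of the study and that lie in gene deserts, far from any annotated protein-coding gene. The peaks of the 4 libraries were merged wherever they shared at least 1 base. A merged region was kept when all 4 libraries called it, when its centre was more than 100 kb from every protein-coding transcript start of GENCODE vM21 and when that centre lay outside protein-coding gene bodies. Of 93503 merged regions on the assembled chromosomes, 47710 were called in all 4 libraries, which was 51% of them, and 3062 of these met the distance rule. The members were thus chosen by the peak calls in the 4 libraries, which are given as a description. The rank, width and sequence of a region were not used by the rule, beyond the need for a call in each list. Its position relative to coding genes was used.

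The study asked how IL-4 alters the chromatin of T cells that are being driven towards the regulatory fate. The cells were CD4+ T cells of naive phenotype (CD62LhighCD44lowCD25-) that came from spleens of male wild-type C57BL/6 mice aged 7 weeks, and they were cultured for 48 h. Both groups received the same Treg-polarizing mix of anti-CD3 at 5 µg/ml with anti-CD28 at 1 µg/ml, plus 10 ng/ml of IL-2 together with 5 ng/ml of TGF-β1. The iTreg+IL-4 group (2 libraries) also received IL-4 at 15 ng/ml, and the iTreg+PBS group (2 libraries) received PBS. The paper describes the samples as biologically independent pools, so a library is a pool of cells and not 1 animal, and no library of untreated naive cells was analysed here. In such bulk samples, a change in the number of cells with an open region cannot be told apart from a change in the accessibility per cell.

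ATAC-seq uses a transposase that inserts sequencing adapters into DNA not covered by nucleosomes, so that a pile of reads marks an open region. In lymphocytes most open regions outside promoters are distal elements, bound by lineage factors such as RUNX, ETS and TCF proteins and by activation-induced AP-1 and NFAT factors. Gene deserts are long intervals without coding genes. Some hold clusters of enhancers that act over long distances on a developmental or immune gene at the edge, and others hold mostly repeats. The nearest coding start is used below only to say where a region lies, since no measurement here ties a region to the gene it may act on.

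Several members carry the points made below, and their sequences are given first (GRCm38/mm10, + strand, positions counted from 1). The first 3 are 300-base windows at the centres of the best ranked members of non-repeated sequence nearest to Cblb, Foxo1 and Id2, shown because these genes of T cell biology sit at the edges of deserts rich in members. Capitals mark every match to one of 12 short motifs that were searched on both strands.

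chr16:51690813-51691112, nearest Cblb: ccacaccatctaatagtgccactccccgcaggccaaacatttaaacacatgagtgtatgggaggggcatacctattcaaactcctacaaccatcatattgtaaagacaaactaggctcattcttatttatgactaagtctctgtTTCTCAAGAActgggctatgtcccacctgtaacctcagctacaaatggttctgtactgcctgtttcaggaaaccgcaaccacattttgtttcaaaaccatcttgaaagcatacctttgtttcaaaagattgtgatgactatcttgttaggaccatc
chr3:52555040-52555339, nearest Foxo1: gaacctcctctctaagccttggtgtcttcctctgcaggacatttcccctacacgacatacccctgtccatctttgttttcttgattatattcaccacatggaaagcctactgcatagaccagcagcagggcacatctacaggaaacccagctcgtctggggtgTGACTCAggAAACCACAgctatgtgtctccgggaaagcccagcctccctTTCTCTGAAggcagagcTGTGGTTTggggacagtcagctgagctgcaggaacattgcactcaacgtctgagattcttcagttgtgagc
chr12:25306039-25306338, nearest Id2: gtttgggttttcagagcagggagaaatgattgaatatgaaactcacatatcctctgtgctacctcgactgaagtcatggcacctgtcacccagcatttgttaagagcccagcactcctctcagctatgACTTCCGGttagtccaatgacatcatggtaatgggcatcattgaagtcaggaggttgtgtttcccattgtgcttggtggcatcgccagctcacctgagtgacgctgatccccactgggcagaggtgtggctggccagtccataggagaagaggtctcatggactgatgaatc

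The capitals near Cblb are a STAT6-type match, a pair of the arms TTC and GAA with 4 free bases between. Those near Foxo1 are 1 AP-1 match (TGANTCA), 2 RUNX matches (TGTGGTTT, 1 of them on the other strand) and 1 STAT match with 3 free bases (TTCNNNGAA). Those near Id2 are an ETS match with a CG (CCGGAAGT) on the other strand. The next 3 windows belong to members that ranked higher in both IL-4 libraries, and only their STAT6-type match is in capitals.

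chr13:107779408-107779707, nearest Smim15: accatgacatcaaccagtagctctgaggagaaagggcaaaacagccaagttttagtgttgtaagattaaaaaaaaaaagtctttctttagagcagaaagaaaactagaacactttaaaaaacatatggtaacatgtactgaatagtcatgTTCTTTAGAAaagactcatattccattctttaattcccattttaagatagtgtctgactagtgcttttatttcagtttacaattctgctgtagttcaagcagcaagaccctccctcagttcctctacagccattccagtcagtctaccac
chr15:62885394-62885693, nearest Myc: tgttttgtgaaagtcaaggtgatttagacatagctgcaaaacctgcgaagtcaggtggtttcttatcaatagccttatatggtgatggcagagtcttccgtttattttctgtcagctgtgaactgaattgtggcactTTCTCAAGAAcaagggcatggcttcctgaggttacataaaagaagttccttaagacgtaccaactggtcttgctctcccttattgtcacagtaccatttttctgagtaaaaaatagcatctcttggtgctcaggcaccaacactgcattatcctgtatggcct
chr3:21809648-21809947, nearest Tbl1xr1: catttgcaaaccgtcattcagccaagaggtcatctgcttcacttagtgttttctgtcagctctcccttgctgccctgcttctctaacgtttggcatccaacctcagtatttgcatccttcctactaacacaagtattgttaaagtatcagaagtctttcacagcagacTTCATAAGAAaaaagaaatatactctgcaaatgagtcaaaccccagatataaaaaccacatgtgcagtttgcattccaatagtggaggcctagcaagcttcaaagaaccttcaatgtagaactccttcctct

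The last 2 show extremes of the set. The window near Zxdb is the best ranked non-repeated member with a CTCF core, in capitals. The region near Nxph1 is given over its whole length, with capitals for bases inside 31-base words that also occur in the mitochondrial genome.

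chrX:94865601-94865900, nearest Zxdb: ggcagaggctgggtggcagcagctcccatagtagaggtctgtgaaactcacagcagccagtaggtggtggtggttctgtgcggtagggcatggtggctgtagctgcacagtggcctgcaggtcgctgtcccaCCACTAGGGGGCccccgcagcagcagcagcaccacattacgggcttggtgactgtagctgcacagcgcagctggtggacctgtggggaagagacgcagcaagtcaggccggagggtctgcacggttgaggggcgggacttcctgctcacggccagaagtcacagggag
chr6:9889947-9890155, nearest Nxph1: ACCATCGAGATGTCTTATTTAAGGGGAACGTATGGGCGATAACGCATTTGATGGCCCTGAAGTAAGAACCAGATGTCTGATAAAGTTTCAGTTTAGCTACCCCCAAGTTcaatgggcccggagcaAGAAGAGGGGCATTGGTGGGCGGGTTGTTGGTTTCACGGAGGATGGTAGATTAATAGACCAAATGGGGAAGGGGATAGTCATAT

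Gene deserts as defined here covered 854 Mb, or 32.2% of the sequenced bases of the assembled chromosomes, and were sparse in constitutive regions. They held 3.59 members per Mb, against 21.9 constitutive regions per Mb of the other intergenic sequence and 27.1 per Mb of coding gene bodies. Fewer desert regions were shared by all libraries than regions elsewhere. Of 7495 merged regions in deserts, 3062 (40.9%, 95% Wilson interval 39.7 to 42.0) were called in all 4 libraries, while 51.9% (51.6 to 52.2) of the 86008 merged regions outside deserts were. A single library accounted for 1943 (25.9%) of the desert regions. These intervals cover counting error only, and regions are not replicates of a condition.

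The median member lay 190 kb from the nearest coding start (quartiles 135 and 319 kb) and spanned 658 bases after merging (quartiles 479 and 885). There were 367 members (11.99%) beyond 500 kb and 89 (2.91%) beyond 1 Mb. The limit of 100 kb cut through a continuous range. The 3 members just inside it lay 100.006 kb from Ifngr1, 100.034 kb from Irx4 and 100.04 kb from Grip1, and the 3 regions just outside lay 99.9 kb from Sesn3, 99.9 kb from Tac1 and 99.8 kb from Rnf19a.

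A large share of the members lay in sequence that the genome holds more than once. A member was called repeated when more than 50% of its 31-base words occurred more than once in GRCm38. This held for 774 members (25.3%, 23.8 to 26.8), against 5.31% (5.11 to 5.52) of the constitutive regions outside deserts, 8.10% of those in intergenic sequence within 100 kb of a coding start and 2.12% of those at promoters. The other 2288 members are called unique below, and 1520 of them held no repeated word at all. The share of repeated members grew with distance, from 14.3% at 100 to 200 kb to 22.9% at 200 to 300 kb, 34.0% at 300 to 500 kb, 61.5% at 500 to 1000 kb and 84.3% beyond. Only 14 unique members lay more than 1 Mb from a coding start. The 5 farthest members, 1931 to 2198 kb from the nearest start, were all repeated, and so were the 5 widest merged regions (4791 to 9854 bases). How the handling of reads that map to several places bears on these calls was not tested.

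**Figure D1:**
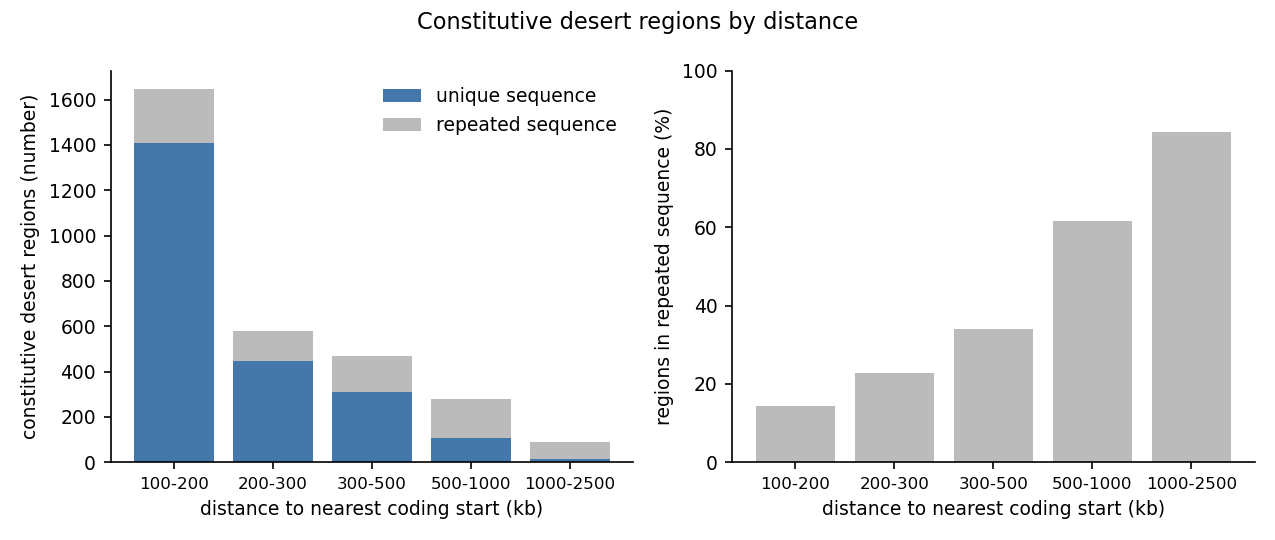
Number of members by distance from the nearest protein-coding start, split into members of unique and of repeated sequence, with the share of repeated members per distance class. The number of members fell from 1646 at 100 to 200 kb to 89 beyond 1000 kb, while the repeated share rose from 14.3% to 84.3%.

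The strength of a peak was compared within libraries only, because the lists are not scaled to each other and their read depth is unknown. The rank of a region is the percentage of peaks in the same library with a higher −log10 q-value, so that 0 is the strongest. The lists held 77064 and 56645 peaks for the iTreg+PBS replicates 1 and 2, and 78670 and 67743 for the iTreg+IL-4 replicates 1 and 2, and values below follow that order of libraries. The list of iTreg+PBS replicate 2 was the shortest. The median height of the pileup over the members was 61, 28, 61 and 44, lowest in that same library.

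The members ranked below other constitutive regions in every library. Their median ranks were 39.99, 50.6, 39.3 and 45.7. Compared with all other constitutive regions of the same library, the median rank was worse by 9.38, 8.78, 9.23 and 11.0 points, a mean of 9.59 ± 0.961 (SD, n = 4 libraries). The direction was the same in 4 of 4 libraries, and the exact two-sided sign-flip test gave p = 0.13, the smallest value that 4 libraries allow. The other regions include promoters, whose constitutive regions had median ranks of 11.9, 14.6, 11.9 and 12.4. Against intergenic regions 10 to 100 kb from a coding start, the members were worse by 3.11 ± 1.26 points (SD, n = 4, exact p = 0.13). Among unique sequence alone, members were worse than the rest, promoters included, by 7.42 ± 1.96 points (SD, n = 4, exact p = 0.13). Against unique intergenic regions 10 to 100 kb from a start the gap was 1.16 ± 1.01 points, worse in 4 of 4 libraries (exact p = 0.13). Against unique gene body regions it was −0.607 ± 0.575, with the members ahead in 3 of 4 libraries (exact p = 0.25).

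Unique and repeated members differed in how the libraries ranked them. Unique members had median ranks of 36.0, 51.1, 34.8 and 41.8, and repeated members 57.9, 49.4, 59.5 and 64.3. In iTreg+PBS replicate 2 the repeated members thus ranked slightly better than the unique ones, and in the other 3 libraries they ranked worse by more than the gap between any pair of those libraries for the unique set. Ranked only among the 47710 constitutive regions, the repeated members stood at 82.6, 57.9, 84.9 and 83.3, again with iTreg+PBS replicate 2 apart, and the unique members at 57.03, 59.8, 56.3 and 58.4. The group comparisons of rank, width and direction over all members are therefore also given for unique members.

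**Figure D2:**
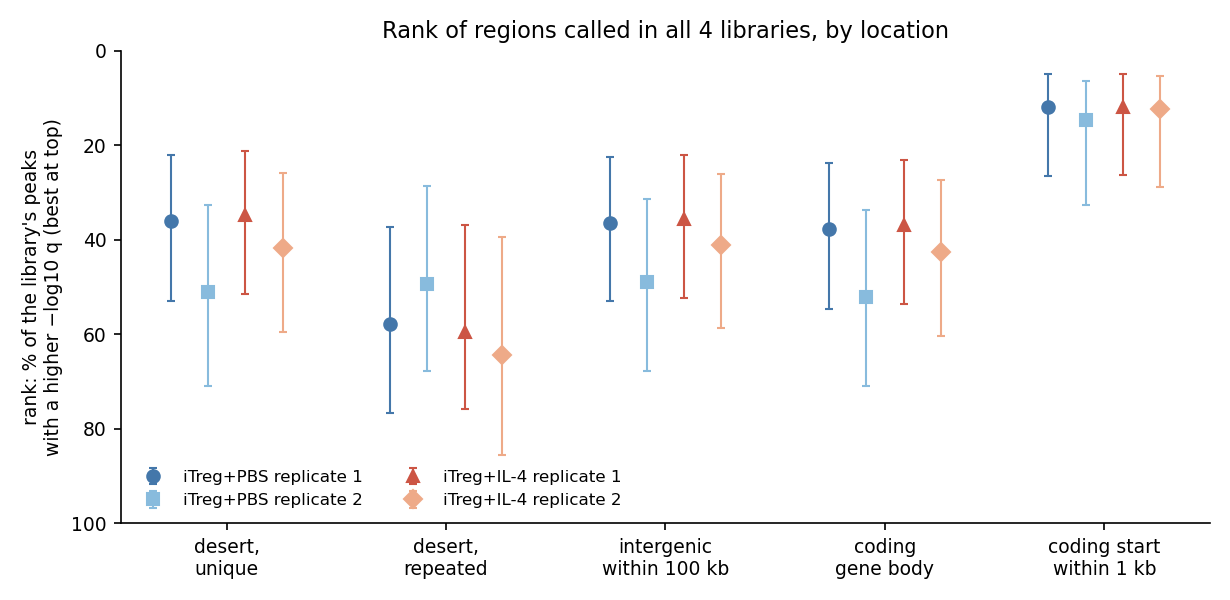
Median rank (percent of peaks in the same library with a higher −log10 q, 0 strongest) of unique members, repeated members and other classes of constitutive regions in each of the 4 libraries, with bars from the lower to the upper quartile over regions. Promoter regions sit at 11.9 to 14.6 in every library, unique members at 34.8 to 51.1, and repeated members at 49.4 to 64.3.

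The top of the ranking was held by repeated sequence as well. Of the 8 members with the best rank in their weakest library 7 were repeated, of the best 20 it was 12, of the best 100 it was 28, and of the weakest 100 it was 72. The strongest member of all, chr12:97061432-97061786 (nearest Galc), had heights of 7196, 5274, 7450 and 6306. Of its 31-base words, 90.5% also occurred in the mitochondrial genome. The Nxph1 region printed above (74.3% of words) had heights of 1742, 1312, 1820 and 1630, and chr5:60042831-60043077 (nearest G6pd2, 67.3% of words) had 1479, 1161, 1565 and 1395. A single further member held any mitochondrial word, chr4:80002765-80003246 (nearest Tyrp1), with 26.99% of its words and heights of 634, 504, 650 and 610. Mitochondrial DNA carries no nucleosomes, and copies of parts of it sit in the nuclear genome as inserts. At the Nxph1 region both IL-4 ranks were ahead of both PBS ranks, and at the other 3 the ranks of the groups overlapped. Whether their reads came from mitochondria was not tested.

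A pair of adjacent members at chr17:39843034-39844883 and chr17:39845043-39848762, nearest to Esp38, had heights of 3564, 1952, 3291 and 2707 for the first and 3324, 1812, 3138 and 2440 for the second. They lay at the GENCODE non-coding genes Gm26917 and Gm42418. They counted as unique, with 3.24% and 21.8% repeated words, but the word count sees only copies that are in the assembly. This pair was named after its values were seen.

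Members were unevenly spread over the deserts. The rule left 2059 desert intervals, of which 879 held a member, and 60 intervals with 10 or more members held 1106 of them (36.1%). The median gap between neighbours on a chromosome was 39.7 kb, and 798 of 3041 gaps (26.2%) were under 10 kb. Of 242 deserts of at least 1 Mb, 58 held no member. Among the longest deserts, those between Pcdh20 and Pcdh9 (4442 kb), between Olfm4 and Pcdh17 (4243 kb) and between Slc39a10 and Tmeff2 (3817 kb) held no unique member. By chromosome the density of unique members was highest on chromosome 13, at 5.55 per Mb, and lowest on chromosomes X and Y, at 0.737 and 0.0168 per Mb.

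The desert with the most members was the locus of the T cell receptor α and δ chains, between Olfr1507 and Dad1, where gene segments are not typed as protein-coding by GENCODE. It held 90 members, of which 14 were unique, among 200 annotated receptor segments. The immunoglobulin heavy chain locus held 39 members (18 unique), T cell receptor β 9 (7 unique), immunoglobulin κ 4 (0 unique), and T cell receptor γ and immunoglobulin λ held 0. Receptor loci together held 142 members (4.64%). In the receptor α and δ locus the median ranks were 43.4, 50.2, 43.5 and 45.7, close to those of all members in each library.

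The other 4 deserts with the most members held 37 to 41 each. The desert between Myc, a growth-promoting transcription factor that is induced on T cell activation, and Gsdmc held 41 members over 1621 kb (chr15:62087423-63708758), all unique. The one between Id2, an inhibitor of E proteins, and Rnf144a held 39 members (37 unique) over 1104 kb. The one between Vrk1, a protein kinase gene, and 3110018I06Rik held 38, all unique, over 1258 kb. The one between Foxo1, a transcription factor of quiescence and homing in naive T cells, and Cog6 held 37 in only 549 kb (chr3:52368337-52917215), again all unique.

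Some shorter deserts were denser still. That between Klf14 and Mkln1 held 27 unique members in 240 kb (113 per Mb), that between Bcl2l11, which encodes the pro-apoptotic protein Bim, and Spdye4c held 27 in 265 kb (102 per Mb), and that between Ubr2 and Mrps10 held 17 in 158 kb (107 per Mb). The last of these has an annotation limit. It contains Trerf1, which RefSeq lists as a coding gene and GENCODE vM21 types as non-coding. For 17 members the nearest curated RefSeq mRNA start was that of Trerf1, within 100 kb. Across all members 50 (1.63%) lay inside a RefSeq coding gene and 13 within 1 kb of a RefSeq mRNA start. By the full distance rule, 231 (7.54%) lay within 100 kb of a RefSeq mRNA start or inside a RefSeq coding gene. With curated RefSeq transcripts only, 89 (2.91%) did.

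In the Myc desert the members lay 105 to 1665 kb from the Myc start, with a median gap of 11.7 kb. Their median ranks were 31.1, 47.3, 25.2 and 33.3. The 7 that were among the best 20% of peaks in every library sat together at 178 to 284 kb. The best of these, chr15:62169126-62170303, is 8460 bases from a start of the non-coding gene Pvt1 and ranked 5.74, 8.57, 5.44 and 6.68. A gap of 529 kb without any member separated the last region, at 1665 kb, from the rest. In the Foxo1 desert the members lay 101 to 614 kb from Foxo1, with a median gap of 8.45 kb and median ranks of 22.8, 37.5, 23.2 and 26.2. The 5 among the best 20% of peaks in every library were spread from 128 to 575 kb, so the strongest regions were dispersed there and bunched near Myc.

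**Figure D3:**
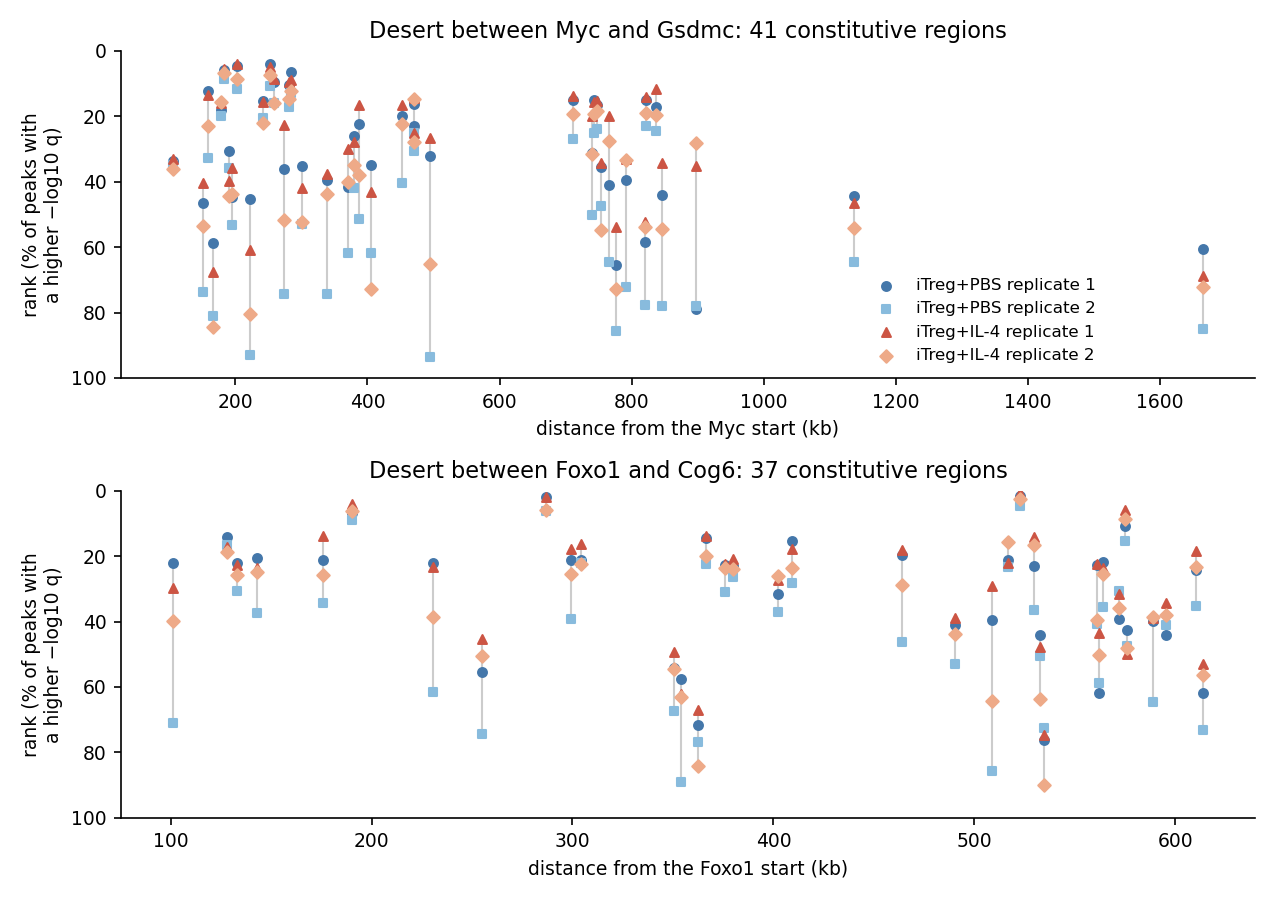
Rank of every member in each of the 4 libraries (vertical axis, 0 strongest) against its distance in kb from the Myc start (upper panel, 41 members) and the Foxo1 start (lower panel, 37 members), with a grey line joining the 4 values of a member. The strongest Myc members sit at 178 to 284 kb, while those of Foxo1 are spread over 128 to 575 kb.

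The genes at the edges were then described through 5 lists (of which 3 hold genes of T cells and 2 genes of other lineages), chosen with earlier results of these data known, so that their counts are descriptions and not independent evidence. Of 49 T cell transcription factors, 22 were the nearest coding gene of at least 1 member, with 239 members in all (230 unique). Of 45 T cell cytokines, receptors and surface proteins it was 9, with 63 members (62 unique), and of 30 activation-induced signalling regulators it was 11, with 68 members (66 unique). Per Mb of desert nearest to their genes, these lists held 23.3, 22.8 and 23.0 unique members, against 2.27 for all genes outside the lists.

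Deserts nearest to genes of other lineages held fewer unique members per Mb than those of all other genes. The 40 neuronal adhesion and synapse genes bordered 50.4 Mb of desert but only 8 unique members, 0.159 per Mb, among 49 members in all. The 50 developmental transcription factors of other lineages had 20 unique members in 19.3 Mb, 1.04 per Mb, with single genes above that, such as Sox5 with 4 and Lmo4 with 5. Since deserts of these genes reach farther from their starts, the same was computed only for sequence 100 to 200 kb from the nearest start. The densities were then 37.2, 42.0 and 40.3 unique members per Mb for the 3 T cell lists, 0.219 for the neuronal genes, 1.43 for the developmental factors and 5.06 for all other genes. Of the 38 genes that were nearest to 10 or more unique members 13 were in the T cell lists and 0 in the lists of other lineages.

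**Figure D4:**
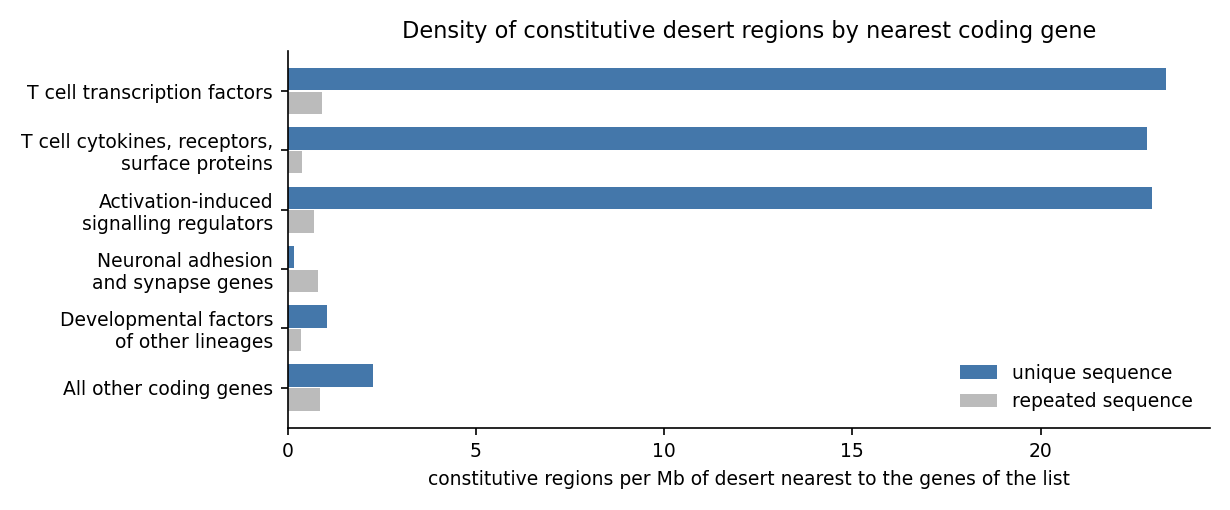
Members per Mb of desert nearest to the genes of each list, and for all other coding genes, with unique members in blue and repeated members in grey. In unique members the 3 T cell lists reach 22.8 to 23.3 per Mb, other genes 2.27, developmental factors of other lineages 1.04 and neuronal genes 0.159.

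Among the T cell transcription factors, Myc was nearest to 45 members, Id2 to 27, Gata3, the factor of the Th2 lineage, to 26, Ets1 and the chromatin organizer Satb1 to 20 each, Foxo1 to 15, Klf6 to 14 and Runx1 to 11. The member at chr3:52554781-52555598, 287 kb from Foxo1, ranked 1.94, 6.17, 1.99 and 5.80. The strongest member near Ets1, chr9:32910310-32911239, ranked 4.32, 6.85, 4.65 and 5.90. The one near Id2, chr12:25305729-25306649, ranked 4.30, 7.53, 3.11 and 6.21. All 3 were weakest in iTreg+PBS replicate 2, and the ranks of the groups overlapped.

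The members near Gata3 lay 103 to 1124 kb from its start, and the 24 unique ones had median ranks of 25.6, 42.5, 23.7 and 31.1. Of all 26 members 5 ranked higher in both IL-4 libraries than in both PBS libraries and 0 ranked lower in both, beside 19.7% and 5.17% of all constitutive regions. The count of higher members is at that background. Its best ranked members were chosen after their values were seen. The region at chr2:9519846-9520608 ranked 18.1, 16.99, 15.6 and 17.6, so the groups overlapped. The region at chr2:9577781-9578559 ranked 8.95, 23.0, 3.98 and 11.9, so that it was strongest in 1 IL-4 library and the groups overlapped again.

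Among signalling regulators and surface proteins the best ranked member lay 340 kb from Cblb, an E3 ubiquitin ligase that restrains T cell receptor signalling. This region, chr16:51690608-51691317, had heights of 761, 329, 791 and 633 and ranks of 1.09, 2.31, 0.468 and 1.06. Its IL-4 ranks were both ahead of both PBS ranks, by less than 2 points. The member nearest the antiproliferative gene Btg1 at chr10:96400559-96401318 ranked 2.55, 4.97, 1.79 and 4.14, and the one nearest the MAP kinase phosphatase gene Dusp4 at chr8:34622469-34623146 ranked 3.02, 9.70, 4.64 and 10.7. For Cxcr4, a chemokine receptor, the member at chr1:128766722-128767644 ranked 6.46, 9.75, 6.19 and 9.48. For Tgfbr2, a receptor for the TGF-β1 in the culture, the member at chr9:116383713-116384692 ranked 8.82, 12.1, 7.46 and 9.10. Apart from the Cblb region, the groups overlapped at each of these.

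Most members lay in no annotated gene of any type. In GENCODE, 2335 (76.3%) were inside no gene, 629 (20.5%) were inside a lncRNA gene and 47 (1.53%) inside a pseudogene. The start of a lncRNA transcript was within 1 kb of the centre of 168 members (5.49%, 4.73 to 6.35), close to the 5.34% (4.98 to 5.74) of constitutive intergenic regions within 100 kb of a coding start. The 156 unique members of this kind had median ranks of 31.4, 44.9, 30.1 and 35.8, better in all 4 libraries than the 36.4, 51.7, 34.98 and 42.0 of unique members without such a start. The best ranked of them, chr13:107889955-107891552, was named after its values were seen. It ranked 0.897, 1.06, 1.13 and 1.12, and lay 690 bases from the start of Zswim6, another gene that RefSeq counts as coding and GENCODE vM21 does not.

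The base composition of unique members was nearer to that of other distal regions than to that of promoters. Their central 300 bases had a median GC content of 46.3% and 3 CpG dinucleotides. Flanking windows 2000 bases away had 43.3% and 2, constitutive intergenic regions within 100 kb had 48.7% and 4, and promoters had 65.3% and 26. Windows with 10 or more CpG made up 7.65% of unique members and 86.3% of promoter regions.

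Several motifs, but not all, were more frequent in the windows of unique members than in their own flanks. AP-1 matches were in 23.7% (22.0 to 25.5) of unique members, 9.40% of flanks, 18.6% of unique intergenic regions within 100 kb and 4.60% of promoters, and in 14.4% of all constitutive regions. RUNX matches were in 8.13% of unique members against 2.56% of flanks and 5.02% of all constitutive regions. ETS matches without a CG (ACAGGAAG) were in 9.83%, 3.05% and 6.75% in the same order. The CG form was in 0.918% of unique members and 6.13% of promoters, and the SP and KLF motif (GGGCGGGG) in 2.58% and 27.9%. TCF and LEF matches (CTTTGAA) were in 11.1% of unique members and 7.61% of flanks. NFAT matches (TTTTCCAT) were as frequent in flanks, 3.01%, as in unique members, 3.06%, and GATA matches were in 4.63% (3.85 to 5.57) of unique members and 3.92% (3.38 to 4.55) of flanks.

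The CTCF core was rarer in the deserts than in other distal regions. CTCF is the protein that anchors chromatin loops and insulates neighbouring genes. Its core was in 74 unique members (3.23%, 2.58 to 4.04), in 8.01% (7.55 to 8.504) of unique intergenic constitutive regions within 100 kb, in 5.72% of those in gene bodies, and in 0.0470% of the flanks of unique members. With repeated members included the share was 2.71%, against 4.69% of all constitutive regions. Unique members with the core seldom held an AP-1 match, in 4 of 74 (5.41%), while 24.3% of those without it did. The member near Zxdb printed above, with its core in capitals, ranked 9.29, 11.4, 9.53 and 11.6, and the groups overlapped. A motif match is a description of the letters, and 1164 unique members (50.9%) held none of the CTCF, AP-1, RUNX, ETS, GATA and TCF motifs.

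Across all members, the direction of the difference in rank between the groups depended on the scale. The rank among all peaks is a percentage of each library's own list, and the lists differ in length. Constitutive regions outside deserts had median ranks of 30.6, 41.9, 30.1 and 34.7 on it, worst in the shortest list. How far list length sets the difference between the groups was not tested. Among all peaks of a library, the median rank of the members was 42.5 ± 4.53 (SD, n = 2) with IL-4 and 45.3 ± 7.53 with PBS, a difference of −2.79 points (exact two-sided permutation p = 0.667). The smallest p that 2 against 2 libraries can give is 0.3333, so no comparison of this kind could pass 0.05. Unique members differed by −5.26 points (exact p = 0.667). Repeated members went the other way, by 8.26 points (61.9 ± 3.401 with IL-4 and 53.6 ± 5.99 with PBS, exact p = 0.3333). Without iTreg+PBS replicate 2 the difference over all members turned to 2.54, that of unique members turned to 2.30, and that of repeated members was 4.03. Without iTreg+IL-4 replicate 1 the difference over all members turned to 0.415. Ranked among constitutive regions only, all members differed by 2.07 points (63.05 ± 0.525 with IL-4 and 60.98 ± 2.38 with PBS, exact p = 0.3333) and the groups did not overlap, though narrowly: the median ranks were 62.67 and 59.3 in the PBS libraries and 62.68 and 63.4 in the IL-4 libraries. Unique members differed by −1.10 points on that scale (exact p = 0.667), and repeated members by 13.9 (exact p = 0.3333). Without iTreg+PBS replicate 2 these became 0.382 for all, 0.290 for unique and 1.51 for repeated members. The called width was 540.5 ± 44.5 bases with IL-4 and 501 ± 83.4 with PBS (exact p = 0.667), and its difference of 39.5 bases turned to −19.5 without iTreg+PBS replicate 2. Unique members were called 519 ± 36.8 bases wide with IL-4 and 470.75 ± 92.98 with PBS (exact p = 0.667), while repeated members were called 645 ± 74.2 and 691 ± 0.354 bases wide (exact p = 1).

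Single regions were called higher with IL-4 when both IL-4 ranks were better than both PBS ranks, and lower in the reverse case. By this measure 537 members (17.5%) were higher, beside a background of 19.7% over all constitutive regions, and 275 (8.98%) were lower, beside a background of 5.17%. The excess of lower calls came with repeated sequence. Of unique members 483 (21.1%) were higher and 92 (4.02%) lower, against 20.3% and 4.27% of all unique constitutive regions. These counts depended on the scale. Ranked among constitutive regions only, 386 unique members (16.9%) were higher and 300 (13.1%) lower, beside 14.8% and 12.2% of all unique constitutive regions. Of repeated members 54 (6.98%) were higher and 183 (23.6%) lower. Repeated constitutive regions outside deserts leaned the same way, with 13.1% of 2372 higher and 16.1% lower. These repeated members are also those that iTreg+PBS replicate 2 ranked apart from the other libraries. Without that library 35.6% of members and 36.2% of all constitutive regions were lower in both IL-4 libraries than in the remaining PBS library.

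The 5 members with the largest gain in rank with IL-4 were all unique. Near Smim15, and 31276 bases from the start of Zswim6, chr13:107779209-107779906 had heights of 22, 12, 79 and 47 and ranks of 78.9, 92.3, 29.7 and 39.7. At 898 kb from Myc, chr15:62885137-62885950 had heights of 22, 15, 60 and 70 and ranks of 78.9, 78.0, 35.4 and 28.1. Near Tbl1xr1, chr3:21809581-21810015 had heights of 31, 18, 91 and 74 and ranks of 62.2, 67.7, 24.3 and 26.0. In these 3 regions both IL-4 ranks were well ahead of both PBS ranks, and the heights, which are not scaled between libraries, are given only as the deposited values. Their printed windows each hold a STAT6-type match, and that near Tbl1xr1 also holds AP-1, RUNX, STAT and TCF matches. Near Klf3, chr5:64677077-64677838 ranked 60.5, 80.7, 33.2 and 33.2 and held AP-1 and KLF matches but no STAT6-type match. Near Tank, which encodes a regulator of NF-κB signalling, chr2:61309026-61309710 ranked 34.3, 78.0, 15.1 and 22.6 and held AP-1 and STAT6-type matches. The ranks of the groups did not overlap at any of the 5, which is how they were chosen.

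The 5 members with the largest loss in rank with IL-4 were all repeated. The first, chr13:84466567-84467260 (nearest Tmem161b), had a median of 7399 copies per word and ranks of 57.9, 29.6, 87.5 and 72.8. Among unique members, chosen after their values were seen, the largest loss was at chr15:97499229-97499635 (nearest Pced1b). It had heights of 64, 35, 28 and 27 and ranks of 40.3, 43.3, 69.0 and 68.3. The 2 ranks of each group lay close together there, and the groups did not overlap in rank. Of the 5 unique members with the largest loss, those nearest Mug2 and Nuf2 held a STAT6-type match.

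STAT6 is the factor that the IL-4 receptor activates, and GATA3 is the factor that it induces in the Th2 lineage. Higher calls with IL-4 were more frequent among unique members with a match to either factor's motif than among those without, while the intervals for the difference in lower calls included 0. Of the 254 unique members with a STAT6-type match 93 (36.6%, 30.9 to 42.7) were higher, and of the 2034 without one 390 (19.2%, 17.5 to 20.9) were, a difference of 17.4 points (11.5 to 23.7). Among other unique constitutive regions the shares were 30.8% (29.2 to 32.4) and 19.4% (18.98 to 19.8), so the pattern was not particular to deserts. Of the 106 unique members with a GATA match (AGATAAG) 35 (33.0%, 24.8 to 42.4) were higher, against 20.5% (18.9 to 22.3) of those without, a difference of 12.5 points (4.08 to 22.0) that fell to 6.98 without iTreg+PBS replicate 1 and to 7.005 without iTreg+IL-4 replicate 2. Lower calls were at 13 of 254 (5.12%) with a STAT6-type match and 3.88% without, a difference of 1.23 points (−1.07 to 4.76), and at 2 of 106 (1.89%) with a GATA match and 4.12% without, a difference of −2.24 points (−3.89 to 2.56). STAT matches with 3 free bases did not show this, with 77 of 415 (18.6%, 15.1 to 22.6) higher with a match and 21.7% (19.9 to 23.6) without. For ETS matches without a CG the shares were 27.1% (21.7 to 33.3) and 20.5% (18.8 to 22.3). For AP-1 matches the shares were 17.7% (14.7 to 21.2) with and 22.2% (20.3 to 24.2) without. Over all unique constitutive regions, whatever their motifs, 20.3% were higher. The GATA, ETS and AP-1 shares of regions outside deserts are not given here, so these differences cannot be called particular to deserts. Those for ETS and AP-1 are given only for ranks among all peaks. Only 9 unique members held both a STAT6-type and a GATA match, and 1 of them was higher.

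The STAT6-type difference leaned on 1 control library. It was 3.47 points without iTreg+PBS replicate 1. In the 3 libraries left, 61% of all members and 71.1% of all constitutive regions counted as higher, and the remaining PBS library was the one with the worst median rank. It was 11.7 points in the same 3 libraries when ranks were taken among constitutive regions only. Leaving out any other library gave 16.4 to 17.9 points. STAT6-type matches occurred in 11.1% (9.88 to 12.5) of unique members, in 8.69% of their flanks and in 8.93% of unique intergenic regions within 100 kb, and they can overlap matches of other motifs.

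**Figure D5:**
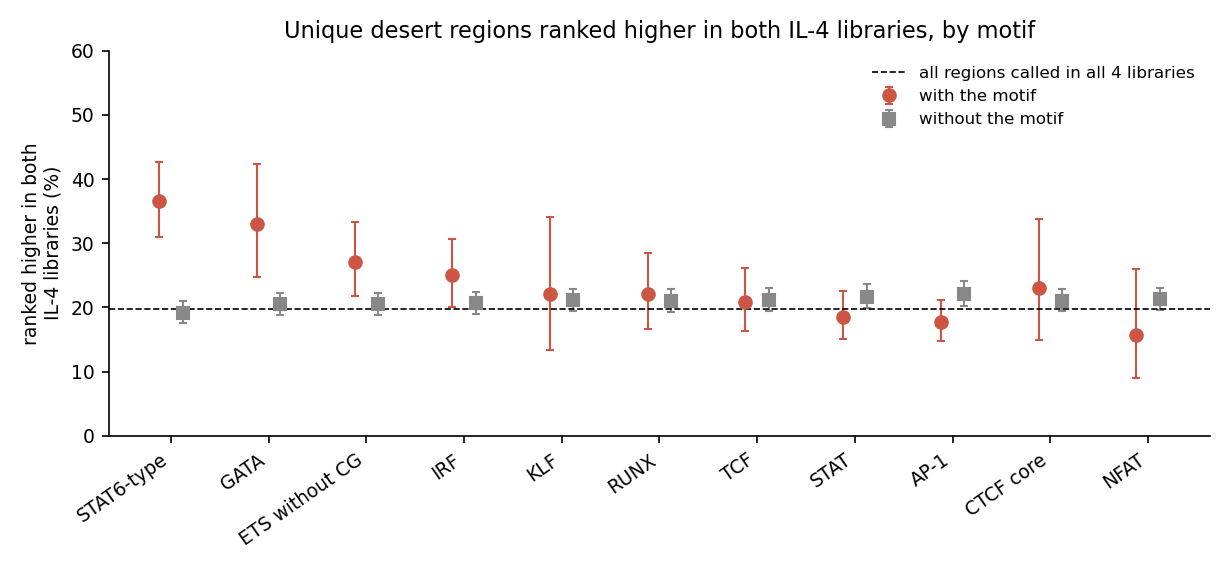
Share of unique members that ranked higher in both IL-4 libraries, with and without a match to each of 11 motifs, with 95% Wilson intervals that cover counting error only and a dashed line at the 19.7% of all constitutive regions. Members with a STAT6-type match reached 36.6% against 19.2% without, and members with a GATA match 33.0% against 20.5%.

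The counts of higher and lower unique members near the listed genes are to be read beside the 20.3% higher and 4.27% lower of all unique constitutive regions. In the T cell transcription factor list, 49 of 230 unique members were higher with IL-4 and 7 lower. For cytokines, receptors and surface proteins the counts were 16 and 1 of 62, for signalling regulators 12 and 2 of 66, for neuronal genes 0 and 3 of 8, and for developmental factors 5 and 2 of 20. All other genes had 401 and 77 of 1902. Whether the lists differ in direction was not tested. In the 5 deserts with the most members, the counts of higher and lower were 26 and 8 of 90 between Olfr1507 and Dad1, 8 and 1 of 41 beside Myc, 7 and 0 of 39 beside Id2, 7 and 3 of 38 between Vrk1 and 3110018I06Rik, and 10 and 2 of 37 beside Foxo1. The counts of these deserts cover all members, for which the background was 19.7% higher and 5.17% lower.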

How the data were processed

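ATAC-seq peak lists of 2 iTreg+PBS and 2 iTreg+IL-4 libraries were used, grouped by the sample labels. The authors sequenced on the BGISEQ-500 and called peaks per library. The submitters' processing notes name Bowtie2 2.2.5, MACS2 2.1.2, bedtools 2.16.2 and mm10. Treatment of the Tn5 offset and of duplicate, mitochondrial and multi-mapping reads is not given in the sources used here. The deposited lists have no header. From their values, the first column after the coordinates was read as the authors' −log10 q-value and the next as the pileup height, a deposited signal that is not scaled between libraries. Lists hold no reads, so depth is unknown, and a peak call has no interval. Starts, counted from 0 in the lists, are printed counting from 1.

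Peaks were merged at 1 shared base, and distances were taken from the region centre to GENCODE vM21 starts. A region split over several peaks of a library took the highest value and the summed width there. Sequence came from GRCm38. Repeated words (31 bases, either strand) were counted over the whole genome, with copies in the assembly only. Motifs were searched in 300-base windows at the region centre on both strands, and flanks were windows 2000 bases to either side that touched no merged region. Shares have 95% Wilson intervals. Group differences of library medians were tested by exact permutation and differences within libraries by exact sign flips. Python 3.11.15, numpy 2.4.6, pandas 2.3.3, scipy 1.17.1, numba 0.67.0 and matplotlib 3.10.9 were used. On simulated lists the merging gave the 19830 regions put in, and all 200 regions raised 20-fold in 2 libraries were recovered (smaller changes were not simulated), while 480 of 4540 unchanged regions also met the non-overlap rule.

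Named regions were the 8 best ranked in their weakest library, the 5 farthest, the 5 widest, the 5 with the largest gain and the 5 with the largest loss with IL-4, the best 5 of each gene list and the 3 to either side of the distance limit, and named deserts the 5 with the most members. The members, gene lists and motifs were chosen with earlier results of these data known, and exceptions are marked in the text. Alternatives changed the distance limit, overlap, list length, annotation, ranking, window and repeat rule, left out each library or blocked on the replicate number.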

Additional observations from a re-analysis of the deposited data

How the results depend on the processing

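The number of members was 5628 at a limit of 50 kb, 1416 at 200 kb, 1230 in the upper 50% of each list and 317 with starts of all GENCODE transcripts, and 4277 when calls in any 3 libraries sufficed and 3139 to 3769 without 1 library. The IL-4 minus PBS rank of −2.79 turned to 2.07 when ranked among regions called in all libraries (0.382, 1.70, 2.44 and 3.75 there without 1 library, −2.50 to 0.290 for unique and 1.51 to 26.2 for repeated members), and ran from −8.11 to 2.54 when 1 library was left out, from −12.8 to 2.30 for unique members and from 4.03 to 12.5 for repeated ones. The width difference of 39.5 ran from −19.5 to 98.5 bases. Members higher with IL-4 (537) numbered 703 (23%, beside 23.9% of all constitutive regions) to 1868 (61%, beside 71.1%) without 1 library. Members lower with IL-4 (275) numbered 460 when ranked among regions called in all (15%, beside 12.7%), 92 among unique members (4.02%, beside 4.27%) and 492 (16.1%, beside 12.2%) to 1089 (35.6%, beside 36.2%) without 1 library. A CTCF core was in 2.06% of members in 200-base windows, 3.59% of whole regions, 3.82% at 50 kb and 1.77% at 200 kb. A lncRNA start was within 500 bases of 4.05% and within 5 kb of 12.7%. The repeated share was 50.4% with any repeated word, 13.9% above 90% and 22.0% by soft-masked bases. The rank difference from other constitutive regions was 9.13 to 9.86 without 1 library, 1.16 to 13.8 otherwise, and −0.607 for unique members against unique gene body regions. The STAT6-type difference ran from 3.47 to 17.9 points without 1 library, and up to 18.7 (ranked by height) over its other alternatives, and the GATA difference from 6.98 to 12.6 and up to 14.1. The cause of these changes was not tested, except that fewer libraries or longer distances change the number of regions by construction. Counting curated RefSeq genes, soft-masking, leaving out libraries for the non-overlap counts, the counts and ranks of unique or repeated members the comparisons with unique regions, calls in any 3 libraries and all STAT6-type and GATA alternatives were chosen after seeing the data.

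The labels give both groups replicates 1 and 2, but no label says that a number marks a shared animal or day, and 2 pairs cannot settle it. Same-numbered libraries deviated together (r = 0.50 over all constitutive regions, 0.48 over members). With the replicate block the rank difference was −2.10 (unique −3.48, repeated 5.61), the width difference 20 bases, the STAT6-type difference 17.4 points and the GATA difference 11.9. Asking for the same direction in both pairs gave 1200 members higher (39.2%, beside 43.4% of all constitutive regions) and 572 lower (18.7%, beside 12.3%). Read depth is unknown, so it cannot be said which missing calls reflect depth.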
